A study of Mus musculus with 2 samples.

Results

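The core genes of transforming growth factor beta (TGF-beta) signalling were compared between eosinophils and dendritic cells of the mouse small intestine. They are the ligands Tgfb1, Tgfb2 and Tgfb3, the receptors Tgfbr1 and Tgfbr2, the signal transducers Smad2, Smad3 and Smad4, and the inhibitors Smad7 and Skil. Members were chosen by name: a probe set counted when the platform annotation gave one of these 10 genes as its only gene. This gave 20 of 22690 probe sets, and each of the 10 genes had at least 1, among 12393 genes in all. Both populations were sorted by flow cytometry from the lamina propria, the connective tissue under the gut epithelium, of C57BL/6 mice aged 8 weeks, and neither had been stimulated. The eosinophil gate was CD11b+, CD11c(int), SiglecF+ and MHCII-, and the dendritic cell gate CD11c+MHCII+. Each population was hybridised to 1 array. How many animals were sorted is not stated in the labels, and CD11c+MHCII+ is also a phenotype of many intestinal macrophages.

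TGF-beta is secreted in a latent form, bound to its own propeptide, and acts only once it is released. The free ligand binds the type II receptor, Tgfbr2, which activates the type I receptor, Tgfbr1. Tgfbr1 then phosphorylates Smad2 and Smad3, which join Smad4 and control genes in the nucleus, among them the inhibitors Smad7 and Skil. In the intestine the pathway is known for inducing regulatory T cells and IgA, for its part in T helper 17 differentiation, and for raising the integrin CD103 on lymphocytes and dendritic cells.

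The members did not share a direction. Tgfb1 was 7.26-fold brighter on the dendritic cell array, whereas Tgfb2 was at least 3.26-fold brighter on the eosinophil array. The receptor Tgfbr1 was 4.96-fold brighter on the eosinophil array and Smad2 2.25-fold. Tgfbr2, Smad4, Smad7 and Skil were each under 2-fold apart, and Tgfb3 and Smad3 were not measured. Since each population has a single array, the differences carry no replicate error and were not tested. The only spread available, between probe sets of the same gene, was 0.73 as a pooled SD of log2 differences (1.65-fold) over 1766 genes. It holds no error between arrays or animals, so a difference within it does not show that the populations are alike. In such sorted bulk samples, fewer cells that express a gene and less RNA per cell cannot be told apart.

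Upstream sequences are shown for the 3 members furthest apart, so that the dendritic cell-bright ligand can be read beside the eosinophil-bright ligand and receptor. RefSeq's promoter table for GRCm38.p6 matched 5 of the 10 members. Each sequence is the 250 bases before the annotated start, 5′ to 3′ on the gene's strand: chr7:25686752-25687001 (plus strand) for Tgfb1, chr1:186705990-186706239 (minus strand) for Tgfb2, and chr4:47352972-47353221 (plus strand) for the upstream of 2 Tgfbr1 entries. Capitals mark matches, on either strand, to the GC box GGGCGG, the TATA box TATAAA, the E-box CACGTG, the AP-1 site TGANTCA or the SMAD palindrome GTCTAGAC. No 2 matches overlapped.
Tgfb1: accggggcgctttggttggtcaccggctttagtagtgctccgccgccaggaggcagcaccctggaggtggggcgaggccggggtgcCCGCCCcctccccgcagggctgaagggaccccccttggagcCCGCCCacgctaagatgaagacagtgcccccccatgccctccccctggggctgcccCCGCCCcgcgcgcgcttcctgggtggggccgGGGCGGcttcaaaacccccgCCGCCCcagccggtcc
Tgfb2: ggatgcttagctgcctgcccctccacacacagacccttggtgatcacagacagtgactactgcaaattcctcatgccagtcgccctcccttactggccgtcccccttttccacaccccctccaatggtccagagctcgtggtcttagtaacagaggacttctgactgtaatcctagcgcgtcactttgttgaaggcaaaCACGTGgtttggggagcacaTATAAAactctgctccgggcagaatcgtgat
Tgfbr1: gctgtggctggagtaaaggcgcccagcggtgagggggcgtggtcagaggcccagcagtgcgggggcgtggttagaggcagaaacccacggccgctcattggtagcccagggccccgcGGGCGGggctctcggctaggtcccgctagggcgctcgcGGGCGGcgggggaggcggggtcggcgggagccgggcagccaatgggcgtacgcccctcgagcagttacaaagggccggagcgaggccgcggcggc

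The Tgfb1 promoter and the Tgfbr1 promoter shown were GC-rich (75.2% and 74.8% G and C), and that of Tgfb2 was close to the median of all 32851 promoters (53.6% against 52.4%). The other Tgfbr1 entry held 52.8% G and C and no GC box. Tgfb1 held 5 GC boxes and the Tgfbr1 promoter shown held 2, a motif found in 32.7% of all promoters of this length. Tgfb2 held a TATA box 31 bases before its start (12.4% of all promoters) and an E-box 51 bases before it (6.02%). The AP-1 site and the SMAD palindrome, found in 6.75% and 0.167% of all promoters, had no match in these windows. A match describes the letters and is not a binding site.

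Signals are linear MAS5 intensities, and a log2 difference is eosinophil minus dendritic cell. The arrays had trimmed mean signals of 500.2 and 500.3 units, so they share a global scale. Signals under 134.7 units, the median of both arrays pooled, were raised to that floor, which makes a ratio with 1 side under it a lower bound, written "at least". Genes that these cells should lack reached 182.7 units at their 95th percentile, so signals between 134.7 and 182.7 units may be background. The floor was passed by 7021 of all 12393 genes on the eosinophil array and by 6362 on the dendritic cell array. Of 8 eosinophil markers, 6 passed the floor on the eosinophil array and 1 on the other, with the granule genes Prg2 and Prg3 below it on both. All 11 dendritic cell markers passed it on the dendritic cell array and 5 on the eosinophil array. Siglecf gave 6977 units in eosinophils and 112 in dendritic cells, and H2-Ab1 gave 108 and 31759. The ratio of 3′ to 5′ signal was 6.38 and 9.0 for actin, and 9.81 and 6.58 for Gapdh, on the eosinophil and dendritic cell arrays.

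The choice of scale matters for the smaller differences. The hybridisation spike controls, bacterial and phage transcripts usually added in fixed amounts, gave a median signal ratio of 2.06 toward the eosinophil array over 18 probe sets. Centring on them lowers each log2 difference by 1.04 before the floor and moves the median of all measured genes from 0.16 to -0.63. Array median centring moves that median to -0.056. Of the 7994 genes above the floor on at least 1 array, 5.35% were at least 4-fold brighter on the eosinophil array, and the share at least 4-fold brighter on the dendritic cell array was also 5.35%. At 2-fold these shares were 19.0% and 15.5%.

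Among the 8 members measured, 1 was at least 4-fold brighter on the eosinophil array (Tgfbr1) and 1 on the dendritic cell array (Tgfb1). At 2-fold there were 3 (Tgfbr1, Tgfb2 and Smad2) and 1 (Tgfb1). With so few members, each count is a list of named genes, and no difference from the shares of all genes is claimed. The median log2 difference of the measured members was 0.74, beside 0.16 for all measured genes. With unmeasured genes at 0 it was 0.51 for the members and 0 for all genes. Tgfbr2, Smad4, Smad7 and Skil fell below 0 with spike centring, so the member median depends on the scale.

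**Figure D1:**
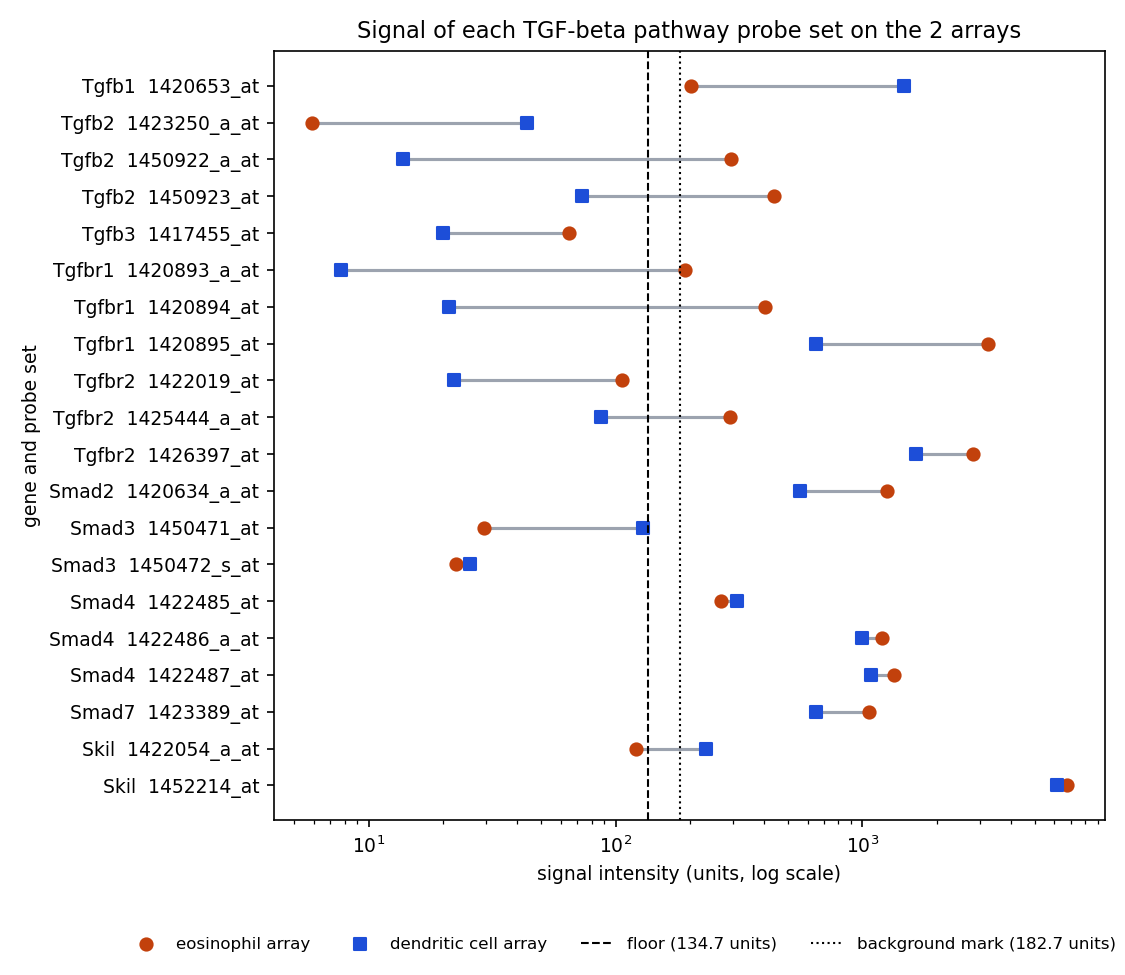
Signal of the 20 member probe sets (rows) on the eosinophil array (circles) and the dendritic cell array (squares), in signal units on a log axis, with the floor of 134.7 units and the background mark of 182.7 units as vertical lines. Tgfb1 stands apart to the right on the dendritic cell array, all 3 Tgfbr1 probe sets stand to the right on the eosinophil array, and both Smad3 probe sets lie left of the floor on both arrays.

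Among the ligands, Tgfb1 had the largest measured difference of any member. Tgfb1 encodes the main TGF-beta isoform of immune cells. Its single probe set, 1420653_at, gave 1469 units for dendritic cells and 202 units for eosinophils, a log2 difference of -2.86. The dendritic cell signal was far above the floor, while the eosinophil signal lay just above the background mark, so 7.26-fold may be a lower bound. Of the 7994 measured genes, 178 (2.23%) were at least as far apart in that direction. Across the scalings of the arrays the difference ran from -2.77 with housekeeping centring to -3.90 with spike centring, so its direction did not turn under any of them. With 1 probe set there is no second measurement of Tgfb1 on these arrays.

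Tgfb2, an isoform best known from epithelial and mesenchymal cells, showed the opposite pattern on its measured probe sets. Probe set 1450923_at gave 439 units on the eosinophil array and 73.1 units on the dendritic cell array, at least 3.26-fold (log2 difference 1.70). Probe set 1450922_a_at gave 295 and 13.8 units, at least 2.19-fold. Both therefore passed the floor in eosinophils and not in dendritic cells, so after the floor they could point no other way. They are also annotated to the same source sequence, so their agreement is not independent support. The remaining one, 1423250_a_at, gave 5.87 and 43.7 units, below the floor in both populations, and so measured neither population. The difference was smallest, 1.20, with spike centring. Under each scaling the dendritic cell signal stayed under the floor, so this lower bound could not change direction. Without the floor, at 1 unit, it was 2.59.

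Tgfb3, the other mesenchymal isoform, gave 64.9 units on the eosinophil array and 19.9 on the dendritic cell array. Both values lie under the floor, so no ratio was taken. Tgfb1 and Tgfb2 were therefore the ligands with signal above the floor: Tgfb1 on both arrays and Tgfb2 on the eosinophil array alone.

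Markers of other lamina propria cells were looked at beside the ligand values, since other cell types also make TGF-beta. Each count is to be read beside all 12393 genes, of which 7021 passed the floor in eosinophils and 6362 in dendritic cells. Of 9 stromal and endothelial markers, 6 passed the floor in eosinophils and 2 in dendritic cells, with summed signals of 2629 and 713 units. On the eosinophil array Col3a1 (162 units) lay under the background mark, and Pdgfrb (192 units) and Cdh5 (195 units) lay just above it. Pdgfra (789 against 54.8 units) and Pecam1 (647 against 55.8 units) led, while the collagen gene Col1a1 was under the floor on the eosinophil array (99.2 units) and gave 225 units on the dendritic cell array. Their part in the Tgfb2 signal was not tested. Of 9 macrophage and monocyte markers, 3 and 5 were above the floor on the eosinophil and dendritic cell arrays, with sums of 2226 and 7106 units, led by Cd14, under the floor in eosinophils and at 2641 units in dendritic cells, while Mertk went the other way (258 and 59.1 units). Of 6 T cell markers, 2 and 3 were above the floor, with sums of 657 and 4629 units. Of these, Cd8a gave 141 and 3732 units, Cd3e 336 and 557 units, and Cd5 125 and 139 units. Cd8a is also carried by a subset of dendritic cells. The CD11c+MHCII+ gate selects against T cells but not against macrophages that carry both markers, and the part of any of these cells in the Tgfb1 signal was not tested. Of 8 epithelial markers, 3 and 2 were above the floor, with sums of 1792 and 942 units. Krt18 gave 870 and 60.7 units, Epcam 433 and 336 units, and Krt19 153 and 46.1 units. Fabp2 went the other way (79.1 and 226 units). Any part of epithelial cells in the Tgfb2 signal was not tested. Of 6 B and plasma cell markers, 0 and 1 were above the floor (sums of 377 and 902 units). For 8 mast cell and basophil markers the counts were also 0 and 1 (455 and 785 units), and for 6 neutrophil markers they were 3 and 1 (1113 and 328 units).

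Of the receptors, Tgfbr1 was brighter on the eosinophil array under every scaling, whereas Tgfbr2 changed sides with spike centring. Tgfbr1 encodes the type I receptor kinase (ALK5). Probe set 1420895_at gave 3227 units on the eosinophil array and 651 units on the dendritic cell array, a 4.96-fold difference (log2 2.31), with both signals well above the background mark. Probe set 1420894_at gave 402 and 21.1 units, at least 2.99-fold. Probe set 1420893_a_at gave 191 and 7.74 units, at least 1.41-fold. All 3 probe sets pointed the same way, and in dendritic cells only the brightest passed the floor. The other 2 passed it in eosinophils alone, so after the floor they could point no other way. All 3 are also annotated to the same source sequence, so their agreement is not independent support. Of all measured genes, 3.67% were at least as far apart in that direction. Averaging over the 3 probe sets, of which 2 are lower bounds, gave 1.46, below the 4-fold mark. With spike centring the difference was 1.27, still toward the eosinophil array but also below 4-fold.

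Tgfbr2 encodes the type II receptor, which binds the ligand. Its brightest probe set, 1426397_at, gave 2808 units on the eosinophil array and 1647 units on the dendritic cell array, 1.70-fold apart. Probe set 1425444_a_at gave 291 and 87.4 units, at least 2.16-fold. The third, 1422019_at, gave 106 and 22.1 units, under the floor on both arrays. The log2 difference of 0.77 was about the size of the SD between probe sets, and it turned to -0.27 with spike centring. Tgfbr2 was thus above the floor on both arrays with no settled direction. On the deposited scale, 25.5% of all measured genes were as far apart or further toward the eosinophil array.

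**Figure D2:**
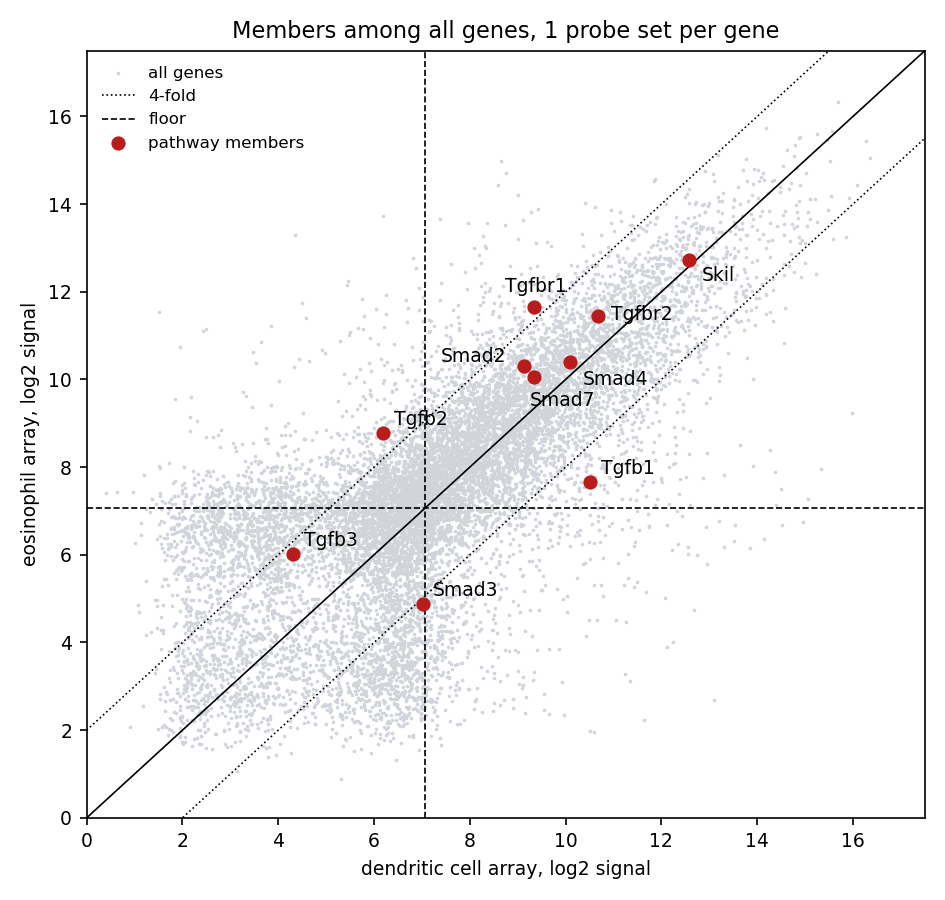
Log2 signal on the eosinophil array (vertical) against the dendritic cell array (horizontal) for all genes (grey, 1 probe set per gene) and the 10 members (red), with the line of equal signal, the lines of 4-fold difference and the floor. Tgfbr1 and Tgfb1 lie outside the 4-fold lines on opposite sides with both signals above the floor, Tgfb2 lies left of the floor of the dendritic cell array, and Skil, Smad4, Smad7 and Tgfbr2 lie near the diagonal.

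Of the receptor-activated transducers, Smad2 was above the floor on both arrays and Smad3 on neither. Smad2 gave 1258 units on the eosinophil array and 558 units on the dendritic cell array (1420634_a_at, its only probe set), 2.25-fold apart. This difference of 1.17 shrank to 0.13 with spike centring, and 15.4% of measured genes were as far apart or further toward the eosinophil array. Smad3 gave 29.3 and 129 units on 1450471_at, and 22.5 and 25.8 units on 1450472_s_at, whose suffix marks probes shared with another transcript. Its best dendritic cell signal came within 5.39 units of the floor. Array median centring, quantile normalization, loess and spike centring raised that signal just over the floor, with bounds of -0.084 for the first 2 of these, -0.13 and -0.48 against an eosinophil signal under it. Lower floors gave -1.64 (25th percentile) and -2.14 (1 unit). No Smad3 ratio was taken at the main floor, and a signal under the floor does not show that the transcript is absent.

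Smad4, the shared partner of all receptor-activated SMADs, differed on the deposited scale by less than the SD between probe sets. Its probe sets gave 1341 and 1089 units (1422487_at), 1206 and 993 units (1422486_a_at), and 268 and 311 units (1422485_at) on the eosinophil and dendritic cell arrays. The first pair differed by 0.30 and 0.28 on the log2 scale and the third by -0.22, so the 3 probe sets disagreed in direction. With spike centring the brightest was at -0.74.

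The inhibitors also differed little. Smad7, which blocks Tgfbr1 and recruits ubiquitin ligases to it, gave 1062 units on the eosinophil array and 646 units on the dendritic cell array. This 1.64-fold difference (log2 0.72) is within the SD between probe sets and became -0.32 with spike centring. Skil, which encodes the co-repressor SnoN, gave 6743 and 6147 units on 1452214_at, 1.10-fold apart. Its second probe set, 1422054_a_at, gave 121 units on the eosinophil array, under the floor, and 233 units on the dendritic cell array, at least 1.73-fold in the other direction. The sign of Skil therefore depended on the probe set, and it also turned with array median centring (-0.15) and spike centring (-0.91).

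**Figure D3:**
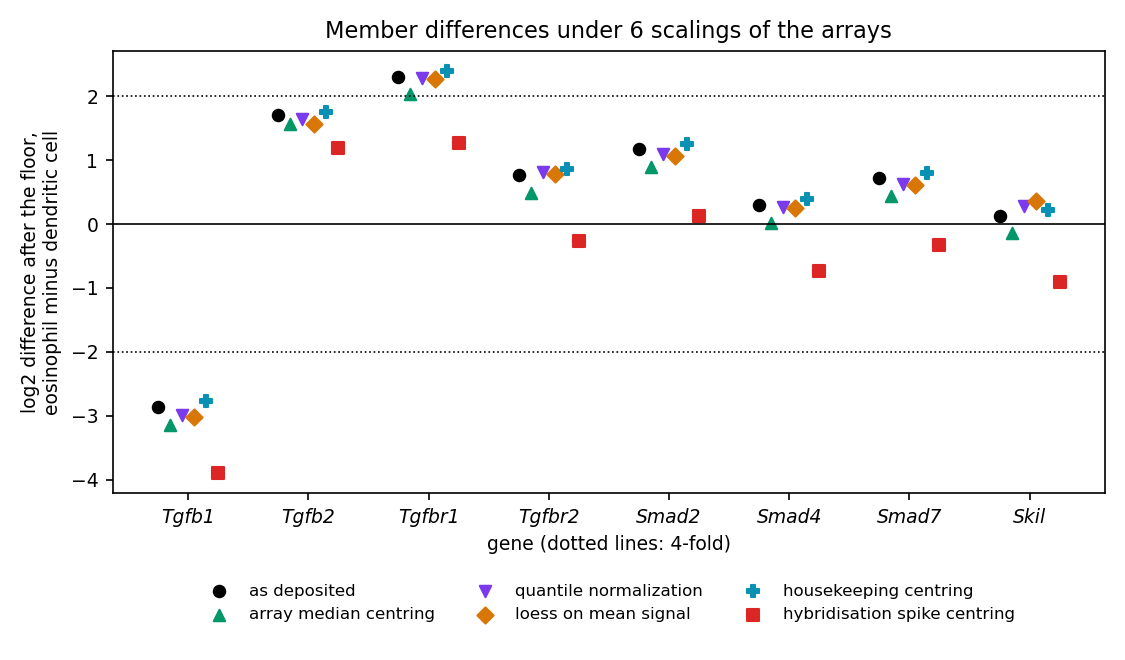
Log2 difference after the floor (eosinophil minus dendritic cell, vertical) of the 8 measured members under 6 scalings of the arrays, with dotted lines at 4-fold. Tgfb1 stays below the lower line under each scaling, and Tgfbr1 and Smad2 stay above 0 (Smad2 only at 0.13 with spike centring). Tgfb2 also stays above 0, as a lower bound that cannot cross it. Tgfbr2, Smad4, Smad7 and Skil cross 0 with spike centring.

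Genes around the core pathway were read from 8 lists, together 165 genes, of which 149 had a probe set of their own and 100 were measured. Of these, 5 were at least 4-fold brighter on the eosinophil array and 8 on the dendritic cell array. Over all measured genes that share was 5.35% on each side, and at 2-fold it was 19.0% and 15.5%. No difference from these shares is claimed for these counts or for those of any list below. The median log2 difference was 0.14 beside 0.16 for all measured genes, and 0 for both with unmeasured genes at 0. With spike centring the 4-fold counts over the 8 lists were 2 and 15, while those over all genes went from 428 and 428 to 161 and 1153. The lists differ in what they hold, and they are taken here in the order of the signal.

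Genes that bind latent TGF-beta or release it had 10 measured of 19, with a median of 0.38, or 0 with the 9 unmeasured genes at 0. Of those measured, 2 were at least 4-fold brighter on the eosinophil array and none on the dendritic cell array. Over all measured genes that share was 5.35% on each side. The 2 genes were the gelatinase Mmp9 (1195 against 83.0 units, at least 8.87-fold) and the urokinase receptor Plaur (2330 against 399 units, 5.84-fold). Both encode parts of proteolytic systems with many other substrates. Furin, the protease that cleaves the TGF-beta propeptide, gave 27754 units on the eosinophil array and 7714 on the dendritic cell array, 3.60-fold. With spike centring Plaur was at 1.51 and Furin at 0.81 on the log2 scale. Itgav, the alpha chain of integrins that release latent TGF-beta, was close to equal on its brightest probe set (3618 and 3582 units), while its 3 measured probe sets ran from -1.0 to 0.047. Nrros, which tethers latent TGF-beta on myeloid cells, gave 286 and 272 units. Itgb1 was 2.53-fold brighter on the dendritic cell array, although its measured probe sets ran from -1.34 to 0.78. Thbs1, an activator of latent TGF-beta, gave 103 and 109 units, below the floor in both populations. Itgb8 and Lrrc32 had no probe set annotated to them alone and were not analysed here.

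Other receptors of the family had 8 measured of 17, with none at least 4-fold brighter on the eosinophil array, 1 on the dendritic cell array and a median of 0.88, or 0 with the 9 unmeasured genes at 0. Acvrl1, the type I receptor ALK1, gave 552 units on the dendritic cell array and 46.5 on the eosinophil array, at least 4.10-fold. The BMP type II receptor Bmpr2 (639 against 177 units, 3.61-fold), the activin type I receptor Acvr1b (768 against 278 units, 2.77-fold) and the BMP type I receptor Bmpr1a (273 against 124 units, at least 2.03-fold) were brighter on the eosinophil array. For Bmpr2 the dendritic cell signal lay under the background mark. The 2 measured probe sets of Bmpr1a ran from 0.33 to 1.02 on the log2 scale. With spike centring Bmpr2 was at 0.81 and Acvr1b at 0.43. The co-receptors Tgfbr3 (9.91 and 4.49 units) and Eng (48.7 and 87.3 units) were under the floor on both arrays.

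Other ligands of the superfamily and their antagonists, read as 1 list, were dim. Of 22 with a probe set, 7 were measured, none with a ratio or lower bound of 2-fold, and the median was 0.11, or 0 with the 15 unmeasured genes at 0. The BMP antagonist Grem1 gave 219 units on the eosinophil array and 38.9 on the dendritic cell array, at least 1.63-fold. Bmp2 (161 and 29.4 units), the antagonist Chrd (161 and 48.1 units) and Nodal (149 and 165 units) stayed under the background mark on both arrays. The SMADs of the BMP branch and Smad6 had 3 measured of 4, again none with a ratio or lower bound of 2-fold, with a median of -0.13. Smad1 gave 866 and 886 units, Smad5 gave 242 and 264 units, and Smad9 gave 123 and 213 units on the eosinophil and dendritic cell arrays.

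SMAD partners and co-regulators had all 23 genes measured, with 3 at least 4-fold brighter on the eosinophil array, 2 on the dendritic cell array and a median of 0.15. Ski, the co-repressor related to Skil, gave 8825 units on the eosinophil array and 668 on the dendritic cell array, 13.2-fold, against 1.10-fold for Skil. It stayed at 2.68 on the log2 scale with spike centring. Runx1 (1415 against 241 units, 5.86-fold) had 5 measured probe sets that ran from -2.76 to 2.55, so its direction depended on the probe set. Sp1, a GC box-binding factor, gave 1803 and 407 units (4.43-fold), or 1.11 on the log2 scale with spike centring. Atf3 (382 against 2345 units, 6.14-fold) and Jun (535 against 2346 units, 4.38-fold), a gene named after its values were seen, were brighter on the dendritic cell array. Both encode stress-responsive factors of the AP-1 type, which many stimuli induce. Tgif1, another co-repressor, was 2.23-fold brighter on the dendritic cell array (660 against 296 units).

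Ubiquitin ligases, deubiquitinases and receptor regulators had 15 measured of 18, with none at least 4-fold brighter on the eosinophil array, 1 on the dendritic cell array and a median of 0.33, or 0.19 with unmeasured genes at 0. Pmepa1, which sequesters Smad2 and Smad3 and is itself induced by TGF-beta, gave 3603 units on the dendritic cell array and 202 on the eosinophil array, 17.9-fold. Its 3 measured probe sets ran from -4.16 to -0.063, and their mean was -1.49, so the size rests on the brightest probe set. The ligases Rnf111, or Arkadia, which degrades Smad7 and Skil protein (16474 against 4409 units, 3.74-fold) and Itch (1486 against 518 units, 2.87-fold) were brighter on the eosinophil array, as was Uchl5 (815 against 311 units, 2.62-fold). With spike centring Rnf111 was at 0.86 and Itch at 0.48. Smurf1 and Smurf2 had no probe set annotated to them alone and were not analysed here.

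Kinases and adaptors of the branches outside SMADs had all 17 genes measured, with 0 at least 4-fold apart in either direction and a median of 0.15. The caspase inhibitor Xiap (1328 against 351 units, 3.79-fold), the adaptor Tab2 (5607 against 2452 units, 2.29-fold) and the kinase Map2k4 (1807 against 827 units, 2.18-fold) were brighter on the eosinophil array. Map2k6 was brighter on the dendritic cell array (422 against 179 units, 2.35-fold). Second probe sets put Xiap as low as 0.42 and Map2k4 as low as 0.24 on the log2 scale. On their brightest probe sets Tab2 was at 1.19 and Map2k4 at 1.13. Both are little more than the 1.04 by which spike centring lowers each difference.

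Genes widely reported to be raised by TGF-beta had 17 measured of 29, with a median of -0.46, or 0 with the 12 unmeasured genes at 0. Of those measured, none was at least 4-fold brighter on the eosinophil array and 4 were on the dendritic cell array. Over all measured genes that share was 5.35% on each side. Itgae, the CD103 alpha chain, gave 7961 units on the dendritic cell array and 55.2 on the eosinophil array, at least 59.1-fold. CD103 also marks a large subset of intestinal dendritic cells. Tsc22d1 (1729 against 262 units, 6.61-fold), the AP-1 member Junb (829 against 163 units, 5.09-fold) and the cell cycle inhibitor Cdkn1a (7492 against 1788 units, 4.19-fold) followed. The eosinophil signal of Junb lay under the background mark. Averaged over their measured probe sets, Tsc22d1 was at -1.72 and Cdkn1a at -1.94, short of 4-fold. Other genes of the list were close: Id2 gave 2339 and 3312 units and Tgfbi gave 3442 and 2457 units on the eosinophil and dendritic cell arrays, and Tgfbi turned to -0.55 with spike centring. The inhibitors Smad7 and Skil, which TGF-beta also raises, were at 0.72 and 0.13 on the deposited scale, and at -0.32 and -0.91 with spike centring, and the mean over the Skil probe sets was -0.33. All of these genes respond to many other signals.

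**Figure D4:**
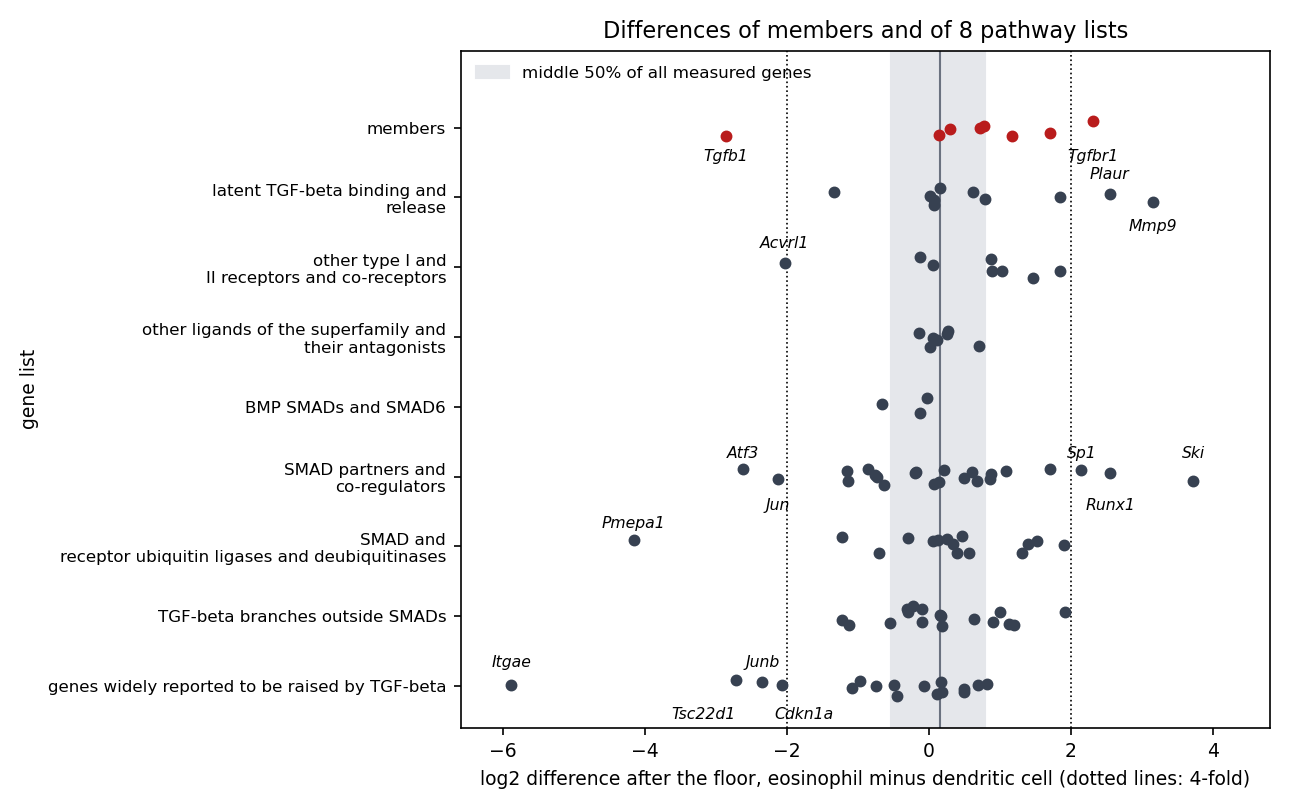
Log2 difference after the floor (eosinophil minus dendritic cell, horizontal) of each measured gene in the members' row (red) and in 8 pathway lists (dark points, spread vertically for legibility), with the middle 50% of all measured genes shaded and dotted lines at 4-fold. Named points lie beyond 4-fold: Itgae, Pmepa1, Tgfb1 and 6 other genes on the dendritic cell side, and Ski, Mmp9, Runx1, Plaur, Tgfbr1 and Sp1 on the eosinophil side.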

How the data were processed

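RNA of 1 sorted eosinophil sample and 1 sorted dendritic cell sample was measured on 3′ expression arrays. The authors deposited 1 linear intensity for each probe set, without detection calls. The submitters' processing notes name MAS5 version 5.0. Of 22690 probe sets, 64 were controls, 20393 had 1 gene in the platform annotation, which can be old, 691 had several and 1606 were not listed. Symbols were updated by Entrez identifier for 20364 probe sets (RefSeq, GRCm38.p6). No build is named for the values, so only the promoters carry coordinates.

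A gene was represented by its probe set of highest mean log2 signal. The floor was the pooled median signal, and the background mark the 95th percentile of 42 genes of lens, hair, smell, germ cells and glands. No p-value was computed, since the design has no replicates. The number of arrays limits the precision. Genes named are all members, up to 4 furthest apart in each list and a fixed set. Members and lists were chosen with earlier results of these data known. The counting was tested on simulated data. Alternatives were 5 other scalings, 3 other floors, averaging over a gene's measured probe sets or taking their median, and thresholds of 2-fold and 10-fold. Tools were Python 3.11.15, numpy 2.4.6, pandas 2.3.3, statsmodels 0.14.6 (loess, span 0.3) and matplotlib 3.10.9.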

Additional observations from a re-analysis of the deposited data

How the results depend on the processing

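The count of members at least 4-fold brighter on the eosinophil array, 1 as reported, became 0 with spike centring and with the mean or the median over probe sets. It became 2 with the floor at the 25th percentile or at 1 unit, 3 at a threshold of 2-fold and 0 at 10-fold. The count on the dendritic cell side, also 1, became 2 with the floor at 1 unit and 0 at 10-fold, and otherwise stayed at 1. Over the 8 pathway lists, the 5 genes brighter on the eosinophil array became 2 with spike centring, 9 and 23 with the floor at the 25th percentile and at 1 unit, and 19 and 1 at thresholds of 2-fold and 10-fold. The 8 brighter on the dendritic cell array became 15, 5, 5 and 19 with spike centring, the mean or the median over probe sets and the floor at 1 unit, and 15 and 2 at 2-fold and 10-fold. All-gene counts moved too: from 428 on each side, eosinophil then dendritic cell, to 161 and 1153 (spike centring), 844 and 665 (25th percentile floor), 1901 and 1460 (floor at 1 unit), 320 and 336 (mean), 330 and 341 (median), 1519 and 1241 (2-fold), and 105 and 124 (10-fold). Of 80 member values under alternatives, 69 moved by less than the SD between probe sets, and 7 of the 11 others arose with spike centring. Among pathway genes Runx1 turned to -0.036 with the median over probe sets. A floor at 1 unit treats background as signal. No paired analysis was possible because each population has 1 array. The 1 array per population limits all values, and signals near the floor limit Tgfb3, Smad3 and the eosinophil side of Tgfb1.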
